A study of Mus musculus with 3 samples.

Results

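The 6 hashtag populations of the C57BL/6 angiotensin II (Ang II) library were compared as 3 against 3, C0301-C0303 against C0304-C0306. A hashtag is an oligonucleotide-tagged antibody that marks the cells of 1 input before pooling. A barcode was kept when it held more than 200 and fewer than 3500 detected genes and under 15% mitochondrial unique molecular identifiers (UMIs), and it was assigned to the hashtag with the most UMIs when that hashtag had 20 or more and at least 3 times the next. This left 13747 of the 16062 barcodes of the library, out of 47214 hashtag-assigned cells and 54971 barcodes in the series. Per the labels, the spleen cells came from C57BL/6 mice aged 12 to 14 weeks whose 2-week minipumps were implanted at 10 weeks to deliver Ang II at 490 ug/kg/min (the unit as the labels give it), with placebo or with 2-hydroxybenzylamine (2-HOBA), 3 mice for each condition. By its title, the library held mice given Ang II in both conditions and no sham.

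No source used here states which hashtag marked which condition. The title names Ang II before Ang II with 2-HOBA, so that label order would make C0301-C0303 the Ang II cells and C0304-C0306 the Ang II + 2-HOBA cells, and this assignment is inferred. In the control library, whose title names male sham before female mice, the order of the labels was followed: Xist was seen in 0.551% to 0.857% of the cells of C0301-C0303 and in 49.8% to 52.1% of those of C0304-C0306. In the Ang II library Xist had 0 UMIs in all 6 populations, which allows a share of up to 0.112% to 0.161% of cells with a Xist UMI, and Y-linked genes were detected in 35.1% to 36.9% of cells of every population. Per the labels, cells of the 3 mice of a condition were pooled and the cells of each condition were hashed. Whether a hashtag marks 1 mouse or a portion of the pool is not stated, so the p-values measure the spread between hashtag populations, which may be technical.

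Ang II raises blood pressure through its receptors on vessels, kidney and brain, and prolonged infusion also activates immune cells. 2-HOBA is a small primary amine that scavenges isolevuglandins, reactive products of lipid oxidation that attach to lysines and can turn self proteins into antigens. The spleen cells here are mostly B cells, which recognise antigen through immunoglobulin and respond with rapidly induced genes such as Nr4a1 and with the costimulatory molecule CD86. T cells had been removed with CD3 microbeads.

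The populations were of similar size and depth. They held 1860 to 2675 cells and 6244719 to 8655892 gene UMIs, with medians of 2673.5 to 2941 UMIs a cell and 1.48% to 1.58% mitochondrial UMIs. Near the hashtag thresholds, 263 assigned cells had 20 to 29 UMIs of their top hashtag and 122 unassigned ones had 15 to 19, while 163 assigned cells had a top hashtag 3 to 4 times the second and 328 unassigned ones 2 to 3 times. The Ang II library shared 313 cell barcodes with the control library and 337 with the B6.SLE123 library. One population stood apart: 255 of the 271 T cells of the library carried hashtag C0303.

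B cells were a larger share of the C0304-C0306 populations and neutrophils a smaller one. B cells (2 or more UMIs of Cd79a, which encodes a signalling chain of the B cell receptor, and none of Lyz2 or Cd3e) made up 78.1%, 72.5% and 68.3% of the cells of C0301, C0302 and C0303. They made up 81.3%, 81.8% and 82.5% of C0304, C0305 and C0306, so the sets did not overlap. The means were 73.0% ± 4.92 and 81.9% ± 0.58 (SD, n = 3 each), a difference of 8.88 percentage points (two-sided exact permutation p = 0.1, the smallest that 3 against 3 can give, and 0.35 adjusted over the 7 shares). Without C0303 the difference was 6.56 points.

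Neutrophils (20 or more UMIs of S100a8 and S100a9 together) were 4.86%, 11.2% and 4.04% of C0301, C0302 and C0303 and 2.46%, 1.64% and 1.96% of C0304, C0305 and C0306. The sets again did not overlap (difference -4.69 points, two-sided exact permutation p = 0.1, adjusted p = 0.35), and C0302 alone was far above the rest. Without C0302 the difference was -2.43 points, and without C0303 it was -6.03. T cells were 10.8% of C0303 and at most 0.323% of any other population, and among those of C0303 there were 120 with Cd8a or Cd8b1 and no Cd4 and 69 with Cd4 only. Mononuclear phagocytes (3 or more UMIs of Cst3, the pan-myeloid cystatin C gene, with few S100a8 and S100a9 UMIs) were 2.90%, 1.94% and 1.53% against 4.07%, 2.47% and 2.99%, which overlapped (exact permutation p = 0.2), a difference of 1.05 points that was 0.76 without C0303. Natural killer cells, plasma cells and erythroid cells overlapped too (exact permutation p = 0.6, 0.3 and 1). A share does not tell more cells of 1 type from fewer of another.

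**Figure D1:**
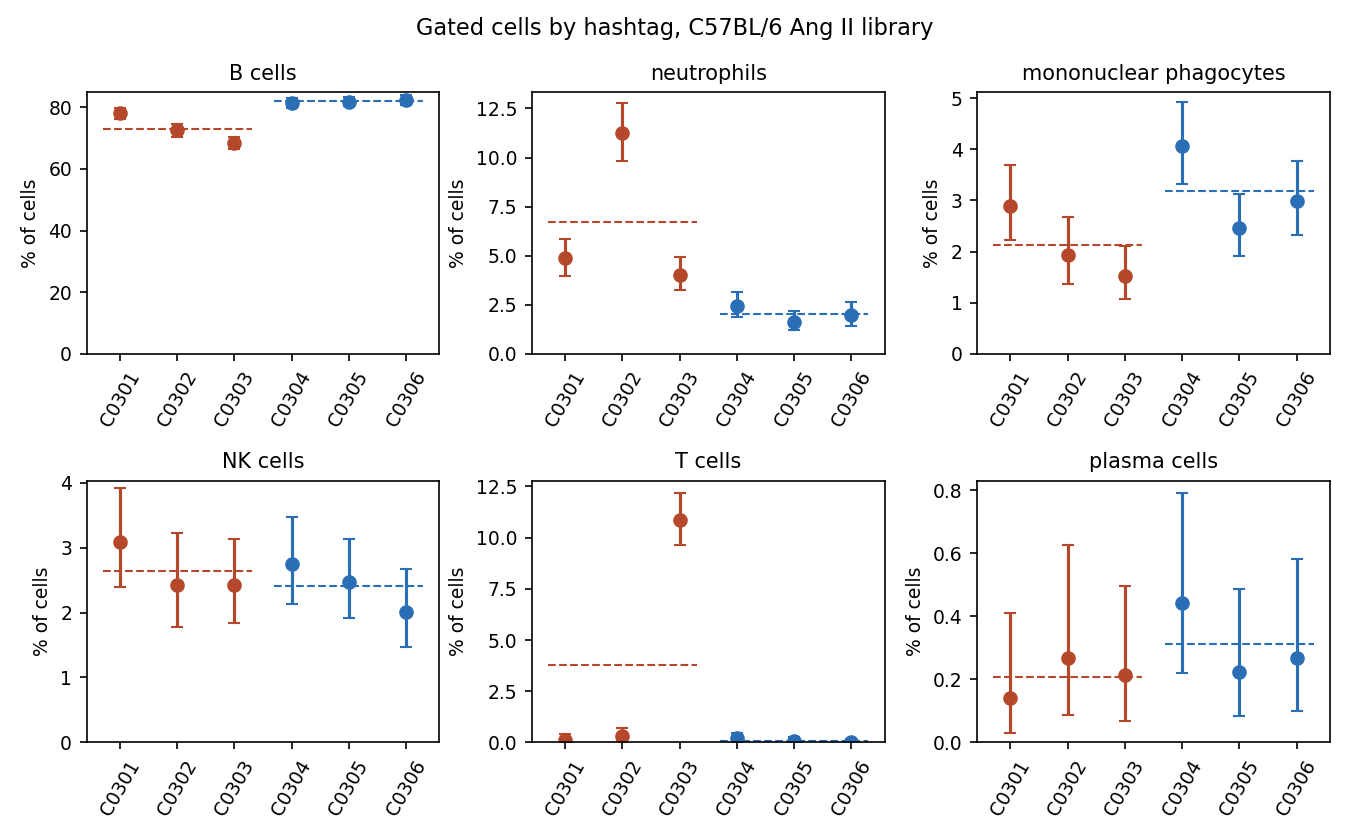
Share of each gated cell class (% of hashtag-assigned cells) in the 6 hashtag populations, with exact 95% binomial intervals that cover counting error only. Dashed lines are set means, red for C0301-C0303 and blue for C0304-C0306. B cells are 68.3% to 78.1% in the first set and 81.3% to 82.5% in the second, and the T cells sit in C0303.

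In B cells, 68 of 10481 tested genes were called at an adjusted p under 0.05 in the edgeR quasi-likelihood test (0.649% of those tested), 52 lower in C0304-C0306 (0.496%) and 16 higher (0.153%). The lower genes included Gpr171, Zfp36l2, Stk17b, Nr4a1, Dusp1 and Cxcr4, and the higher genes Id3, Klf2, Snn and Iglc2. The changes were modest, with 57 of 68 within 1 unit of log2 fold change, and the median over all tested genes was -0.0012. In all 68 genes the 3 values of one set lay outside the 3 of the other, against 14.2% of tested genes. All 68 kept their direction when each population was left out in turn, which the lack of overlap all but fixed in advance. The 68 were picked for a difference between these sets, so neither property is separate support. Without C0303 57 genes were called, 47 of them among the 68.

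**Figure D2:**
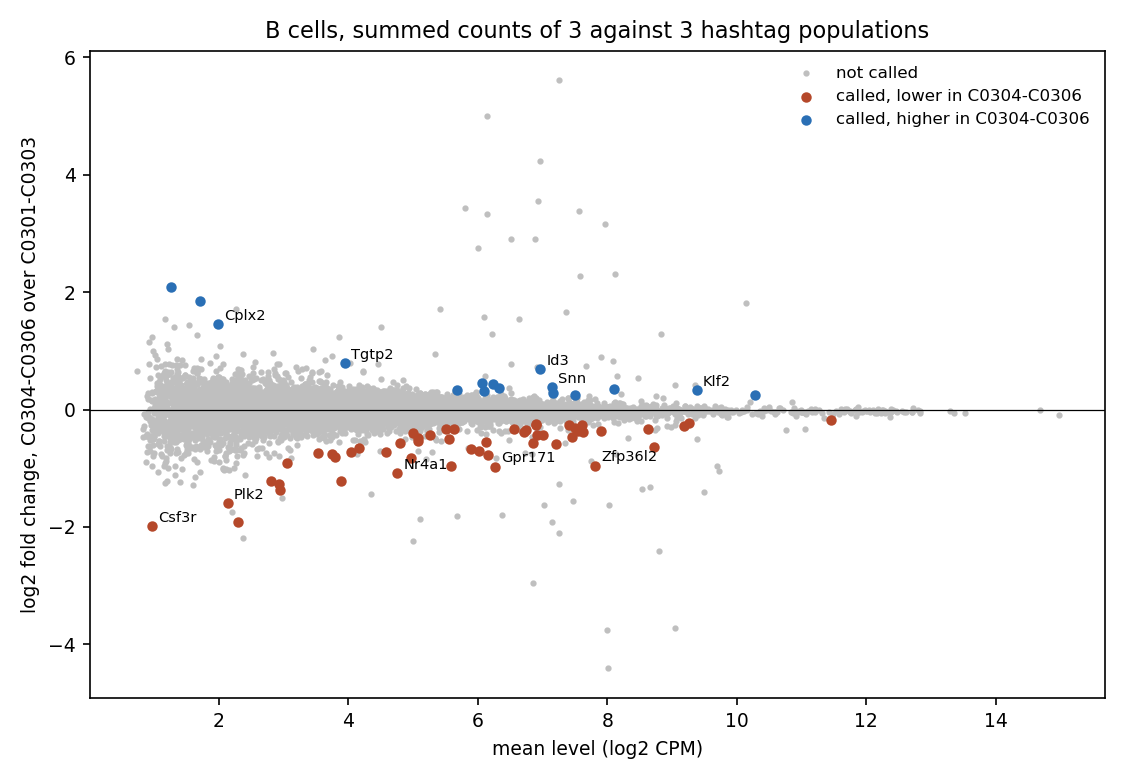
Log2 fold change (C0304-C0306 over C0301-C0303) against mean log2 CPM for the 10481 genes tested in B cells. Coloured points are the 68 called genes, 52 lower and 16 higher, of which 3 are immunoglobulin segment genes. Many of the grey points far from 0 are immunoglobulin genes too.

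Gpr171 had the smallest p-value of all genes tested. Gpr171 (ENSMUSG00000050075, GRCm38 chr3:59096448-59101821, minus strand), which encodes a G protein-coupled receptor, was at 107, 102 and 96.9 CPM (counts scaled to library size) in C0301, C0302 and C0303. It was at 54.6, 51.3 and 50.4 CPM in C0304, C0305 and C0306. Every value of the first set was above every value of the second, and the log2 fold change was -0.97 (SE 0.065, edgeR adjusted p = 1.34e-08), a ratio of 0.51. P2ry10, a receptor of the lysophospholipid family, was at 95.3, 93.0 and 82.7 CPM against 57.4, 48.6 and 52.5 CPM, a log2 fold change of -0.77. Il10ra, the ligand-binding chain of the interleukin-10 receptor, had a log2 fold change of -0.58 and the chemokine receptors Cxcr4 and Ccr7, which guide lymphocytes to bone marrow and to T cell zones, had -0.56 and -0.36. Gpr132, another G protein-coupled receptor, was at -0.67.

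Zfp36l2 had the next smallest p-value. Zfp36l2 (chr17:84183931-84187947, minus strand), an RNA-binding protein that promotes the decay of AU-rich mRNAs, was at 284, 326 and 278 CPM in C0301-C0303 and at 162, 141 and 155 CPM in C0304-C0306. The sets did not overlap, and the log2 fold change was -0.95 (SE 0.066, edgeR adjusted p = 2.53e-08). Its relative Zfp36l1 was lower by less, at -0.23. Stk17b, a serine-threonine kinase of lymphocytes, had values of 531, 522 and 484 CPM against 333, 321 and 330 CPM (log2 fold change -0.64). Dusp1, Dusp5 and Dusp16, phosphatases that switch off MAP kinases, were at -1.22, -1.26 and -0.40. Pde4b, which degrades cyclic AMP, was at -0.47 and Crem, a transcription factor of the cyclic AMP response, at -0.76.

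Among 19 tested immediate early genes, those induced within minutes of a stimulus, 5 were called lower and 1 higher, and the list median was -0.02. Over all tested genes the called shares were 0.496% lower and 0.153% higher. Of the 19, 10 had negative and 9 positive log2 fold changes. Nr4a1 (chr15:101254269-101274795, plus strand), an orphan nuclear receptor induced by antigen receptor signalling, was at 42.6, 37.3 and 30.5 CPM in C0301-C0303 and at 17.9, 18.6 and 15.8 CPM in C0304-C0306. The lowest value of the first set was above the highest of the second, and the log2 fold change was -1.08 (SE 0.12, edgeR adjusted p = 1.65e-05). Ier2, Junb, Dusp1 and Btg2 also fell, with log2 fold changes of -0.44, -0.43, -1.22 and -0.27. Klf2, a factor that keeps lymphocytes resting and recirculating and that the list also holds, was higher, at 602, 591 and 575 CPM against 737, 724 and 773 CPM. The list moved in both directions, and its members not called had log2 fold changes on both sides of 0.

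Of 28 tested genes for B cell activation and NF-kB signalling, 3 were called lower and none higher, with a median of -0.11. Of all tested genes 0.496% were called lower and 0.153% higher. In the list 21 log2 fold changes were negative and 7 positive. Cd86, which encodes a costimulatory ligand for T cells, was at 37.8, 41.4 and 40.2 CPM against 28.9, 26.3 and 26.5 CPM (log2 fold change -0.54, SE 0.086, edgeR adjusted p = 0.00148). Cd83, a surface marker of activated antigen-presenting cells, was at 237, 205 and 225 CPM against 174, 182 and 158 CPM (log2 fold change -0.37). Rel, an NF-kB subunit, was at -0.37. For each of the 3 genes the sets did not overlap.

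Id3 had the smallest p-value among the genes higher in C0304-C0306. Id3 (chr4:136143497-136145755, plus strand), which blocks E-protein transcription factors, was at 97.1, 89.1 and 99.3 CPM in C0301-C0303 and at 144, 152 and 163 CPM in C0304-C0306. The sets did not overlap (log2 fold change 0.68, SE 0.063, edgeR adjusted p = 1.14e-06). Snn, Serpinb1a, Il4i1 and Cd180 rose by 0.38, 0.35, 0.36 and 0.28, of which Il4i1 is an amino acid oxidase and Cd180 a Toll-like-receptor relative of B cells. Iglc2, a lambda light-chain constant gene that shares sequence with the other lambda constant genes, rose by 0.24. Cplx2 had the largest rise among genes that are not immunoglobulin segments, 1.45, at low levels: it was at 1.97, 2.51 and 1.14 CPM (11, 11 and 6 UMIs) in C0301-C0303 and at 5.46, 3.80 and 6.09 CPM (37, 28 and 37 UMIs) in C0304-C0306.

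**Figure D3:**
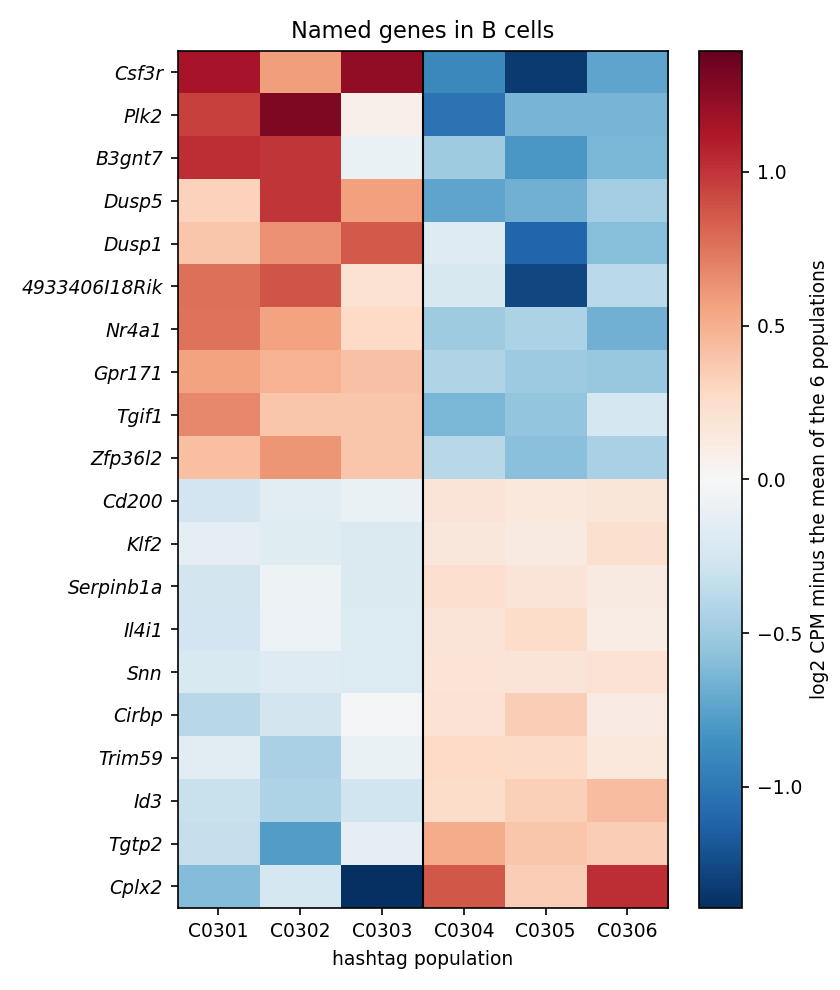
Named called genes in B cells, each as log2 CPM minus its mean over the 6 hashtag populations, with the line dividing C0301-C0303 from C0304-C0306. The 10 upper genes are higher in the first set and the 10 lower genes in the second.

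Other gene lists had no called genes, or 1 or 2, in B cells. None of 26 interferon response genes, 24 NRF2 and antioxidant genes, 7 subunits of the phagocyte NADPH oxidase or 14 MHC class II genes was called, with medians of -0.09, -0.01, -0.02 and 0.02. Some interferon-inducible genes outside that list were among the 68, in both directions. Tgtp2 and Ifi47 were higher (log2 fold changes 0.79 and 0.32), and Trim25 and Ly6a were lower (-0.38 and -0.28). Of 12 heat shock genes 11 had negative log2 fold changes with a median of -0.42, and none was called. Their summed level was 8031 CPM in C0301, 4995 in C0302 and 6350 in C0303 against 4653 to 5184 CPM in C0304-C0306. The 16 genes of the renin-angiotensin list summed to 187 to 211 CPM in B cells. Of these 9 had 0 UMIs, and 3 were tested with none called. Agtr1a had 0 UMIs and Ace 5 in the B cells of all 6 populations.

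**Figure D4:**
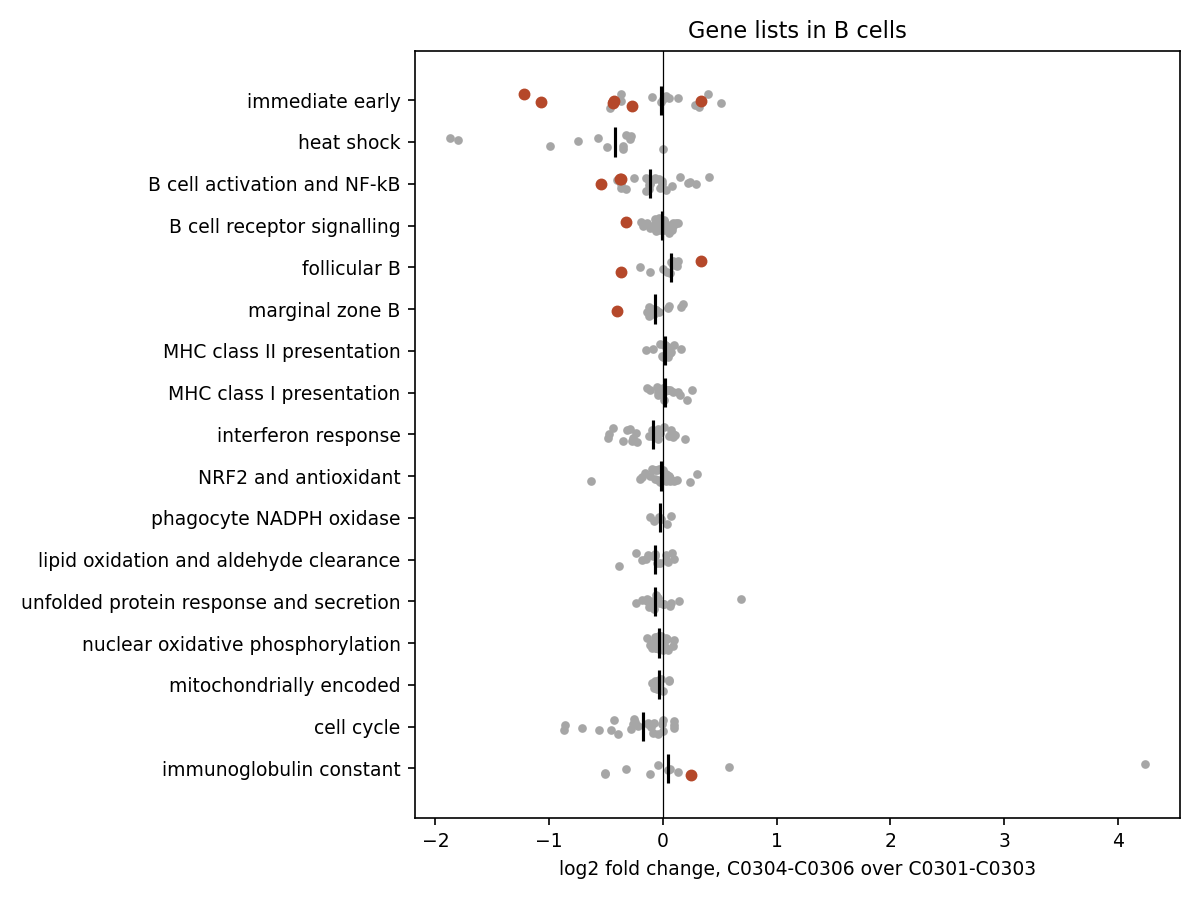
Log2 fold changes in B cells (C0304-C0306 over C0301-C0303) for the tested members of 17 gene lists. Black bars are medians, red points are called genes and grey points are not called. Heat shock genes have a median of -0.42 with none called.

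Transcripts of other cells were present in B cells at low levels. The 14 neutrophil markers summed to between 257 and 345 CPM in the B cells of C0301-C0303 and to between 239 and 272 CPM in those of C0304-C0306. Of 10 tested, 1 was called: Csf3r, the receptor of granulocyte colony-stimulating factor, at 3.05, 2.06 and 3.22 CPM against 0.738, 0.543 and 0.823 CPM. These values rested on 17, 9 and 17 UMIs against 5, 4 and 5, and the call was lost in 6 of 10 other settings. All 9 tested natural killer markers were lower in C0304-C0306, with a median of -0.74 and none called. In the 16 T cell markers the sums were 79.4, 77.5 and 101 CPM against 51.4, 77.0 and 53.5 CPM, and globin-led erythroid markers reached 442 CPM in C0303 and 324 CPM in C0305 and were at most 32.8 CPM elsewhere. Their part in the result was not tested. When B cells with any UMI of 8 marker genes of other cells were left out, 38 genes were called, 34 of them among the 68, and all 64 of the 68 that could be tested kept their direction. That gate left 732 to 1180 B cells a population, from 1348 to 2187. The part of this loss of cells in the lower count was not tested.

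Promoter sequence is shown for the 4 lower genes with an exact cyclic AMP response element, TGACGTCA, near their start. Of 39 lower genes with a promoter in the RefSeq table (GRCm38.p6, 250 bases before to 50 after the start) 5 held it, Ywhah being the fifth, as did 310 of 8103 tested genes with a promoter, 3.83%. None of the 12 higher genes with a promoter held it. The 8 motifs were searched on both strands after the gene values were seen, and a match is a description of letters only. The capitals mark the element.
Dusp1, chr17:26508423-26508722, minus strand: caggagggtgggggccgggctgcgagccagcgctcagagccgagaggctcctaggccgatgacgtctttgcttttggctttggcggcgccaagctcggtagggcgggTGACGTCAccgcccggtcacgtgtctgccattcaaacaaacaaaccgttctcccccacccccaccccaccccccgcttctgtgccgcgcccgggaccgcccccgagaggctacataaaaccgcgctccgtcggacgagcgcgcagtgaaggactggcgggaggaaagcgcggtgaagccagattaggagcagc
Plk2, chr13:110394794-110395093, plus strand: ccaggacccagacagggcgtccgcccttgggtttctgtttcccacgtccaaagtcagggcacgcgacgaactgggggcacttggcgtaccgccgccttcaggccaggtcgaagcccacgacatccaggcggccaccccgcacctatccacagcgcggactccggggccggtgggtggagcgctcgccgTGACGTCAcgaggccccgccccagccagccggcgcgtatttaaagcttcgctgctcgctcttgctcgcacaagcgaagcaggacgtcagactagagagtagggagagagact
Btg2, chr1:134079106-134079405, minus strand: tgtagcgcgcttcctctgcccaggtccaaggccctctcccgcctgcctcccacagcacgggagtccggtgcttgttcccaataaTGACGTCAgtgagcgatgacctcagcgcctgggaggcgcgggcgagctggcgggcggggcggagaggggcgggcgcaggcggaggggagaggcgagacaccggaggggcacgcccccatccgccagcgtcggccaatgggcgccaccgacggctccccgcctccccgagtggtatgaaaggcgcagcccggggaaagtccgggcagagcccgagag
Ppp1r15a, chr7:45526219-45526518, minus strand: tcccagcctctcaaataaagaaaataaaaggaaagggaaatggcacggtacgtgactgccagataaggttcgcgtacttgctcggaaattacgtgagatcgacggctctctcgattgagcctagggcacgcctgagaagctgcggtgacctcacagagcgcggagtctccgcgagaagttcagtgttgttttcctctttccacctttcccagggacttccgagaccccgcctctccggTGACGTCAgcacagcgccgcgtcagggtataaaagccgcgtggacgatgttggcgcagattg
Its first base lies 143, 62, 166 and 12 bases before the start in Dusp1, Plk2, Btg2 and Ppp1r15a. Plk2, a kinase, and Ppp1r15a, a stress-response phosphatase subunit, had log2 fold changes of -1.60 and -0.58. TGACGT, the shorter core of that element and therefore present wherever it is, was in 9 of 39 lower genes, 1 of 12 higher genes and 14.7% of all promoters, and TATTTAT in 3 of 39 lower genes, 3 of 12 higher genes and 3.13% of all. Of the serum response element, searched in 2 spellings, 1 was in the promoter of 1 lower gene, Dusp5. TGACTCA, the AP-1 site, and the NF-kB site, searched in 2 spellings, were in no lower gene.

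The same split by hashtag number was made in the B cells of the other libraries, where it stands for other conditions. The title of the B6.SLE123 library names B6.SLE123 mice before B6.SLE123 mice given the same isolevuglandin scavenger. By label order, again inferred, its split is untreated against scavenger-treated mice of another genotype. Xist was seen in 47.0% to 55.4% of the cells of its populations, and Y-linked genes in none. In the control library 46 genes were called of 10313, and in the B6.SLE123 library none of 10680 by the same edgeR test, with 309 at an unadjusted p under 0.05. Of the 66 of the 68 genes tested there, 34 moved the same way in the control library and 27 in the B6.SLE123 library, and none was called in either. The 68 were picked by their difference in the Ang II library, so smaller differences elsewhere follow in part from that choice. A joint fit, which takes 1 estimate of the spread over the 3 libraries, tested whether the set difference itself differed between them. In that fit the Ang II set difference was called for 20 genes, 19 of them among the 68. Gpr171, Stk17b and Nr4a1 were called there (edgeR adjusted p = 1.02e-06, 0.000547 and 0.00298), and Zfp36l2, Id3, Cxcr4, Klf2, Rel and Cd83 were not (0.36, 0.29, 0.50, 0.81, 0.89 and 0.97). The Ang II difference differed from that of the control library for 15 of 11099 genes (0.135%), 9 of them among the 68, and from that of B6.SLE123 for 3 (0.027%), all among the 68. Outside the 68 these were Gm11707, Eif2s3x and the Y-linked Kdm5d, Eif2s3y, Uty and Ddx3y. Eif2s3y, for example, had set means of 57.4 and 0.69 CPM in the control library and 59.6 and 59.1 CPM in the Ang II library. Gpr171 met both tests: its set means were 98.3 and 50.1 CPM in the Ang II library, 59.1 and 64.2 CPM in the control library and 45.8 and 45.1 CPM in B6.SLE123. For the control library's C0301-C0303, sham by label order, 36 of 65 called genes other than segments had a mean between those of the Ang II sets, 20 below both and 9 above both, and 48 were nearer to C0304-C0306. The 65 were picked for a difference between the Ang II sets. The same counts were not made over all tested genes, so these have no baseline and do not show a return to the sham level. Library and treatment cannot be told apart in that comparison.

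**Figure D5:**
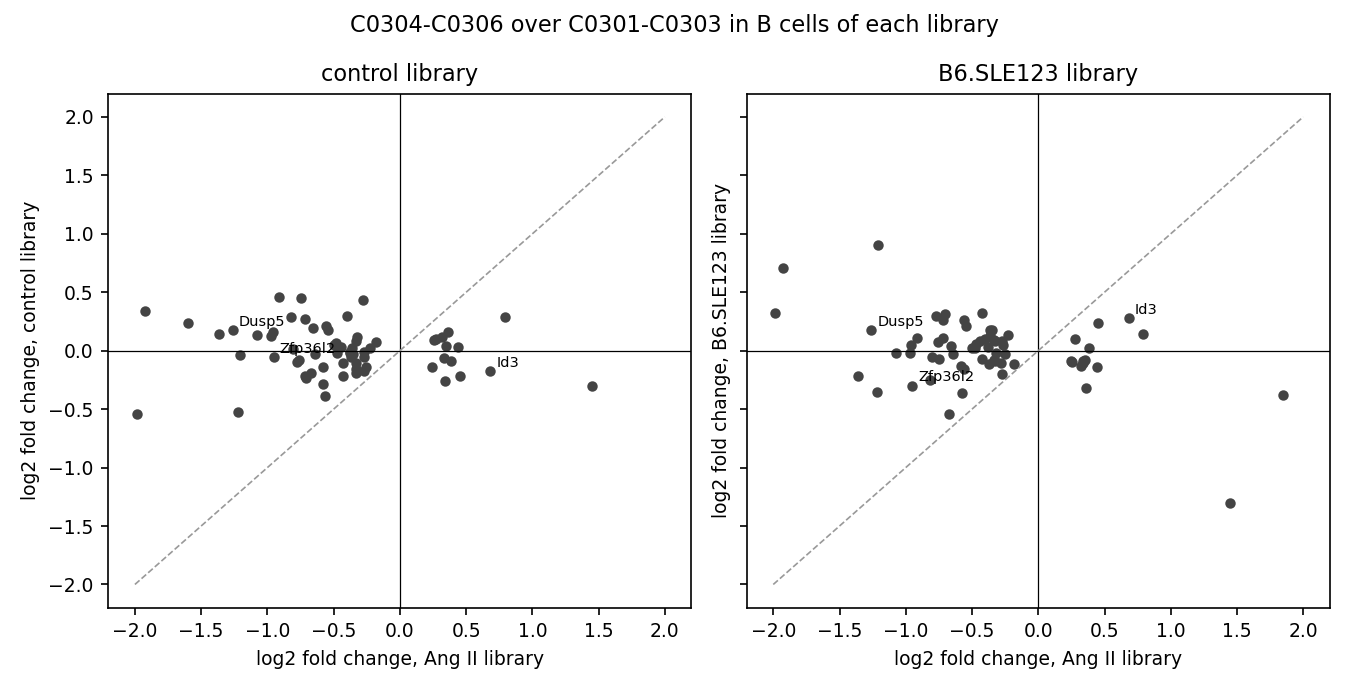
Log2 fold change (C0304-C0306 over C0301-C0303) of the called B cell genes in the Ang II library against the same split in the control library and in the B6.SLE123 library, with the dashed line marking equal values. The median size of the plotted values is 0.49 in the Ang II library, 0.14 in the control library and 0.11 in B6.SLE123, with single genes reaching 0.54 and 1.31 in the latter libraries. The genes were picked by their difference in the Ang II library, which by itself makes their size larger there.

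Over all cells, the lower genes included Cd14, Stfa1, Trem1 and Tarm1, and the higher ones Id3 and Snn. In sums of every assigned cell 51 of 11549 genes were called (0.442%), 41 lower (0.355%) and 10 higher in C0304-C0306 (0.0866%). Cd14, the lipopolysaccharide co-receptor, was at 7.78, 13.7 and 7.60 CPM against 1.41, 1.11 and 2.02 CPM (log2 fold change -2.67, SE 0.32, edgeR adjusted p = 0.012). Stfa1, a cysteine protease inhibitor, Trem1, an amplifier of myeloid inflammation, and Tarm1, a myeloid receptor, were at -2.62, -1.99 and -2.36. All 14 neutrophil markers had negative log2 fold changes, with a median of -2.07, and none was called. At an unadjusted edgeR p under 0.05, 13 of them were lower, against 1668 of the 11549 tested genes in either direction. The sums alone do not tell fewer cells of a type from less RNA a cell. Neutrophils averaged 6.71% of cells in C0301-C0303 and 2.02% in C0304-C0306, and their median UMIs were 2272 to 2742 against 1637 to 2031. The part of each in the sums was not tested.

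The B cell genes were also seen over all cells: Id3, Snn, Trim59, Il4i1, Cd200, Cd180 and Iglc2 rose by 0.77, 0.55, 0.54, 0.53, 0.49, 0.45 and 0.43. Of the 51 genes 20 were among the 68 of B cells, 39.2% of the one list and 29.4% of the other, from cells that overlap. Without the cells of the neutrophil and T cell gates 45 genes were called, 24 of them among the 51. The count rested on single populations: it was 2 without C0304, 4 without C0305, 2 without C0306, 216 without C0302 and 142 without C0303.

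In mononuclear phagocytes, 1 of 4752 genes was called (0.021%). The gate held few cells: 62, 36 and 36 in C0301, C0302 and C0303 and 101, 66 and 67 in C0304, C0305 and C0306. Pclaf, a PCNA-binding protein of dividing cells, was at 71.6, 83.2 and 79.4 CPM in C0301-C0303 and at 2.22, 13.1 and 3.01 CPM in C0304-C0306. These values rested on 24, 14 and 11 UMIs against 1, 4 and 1 (log2 fold change -3.69, SE 0.50, edgeR adjusted p = 0.00365), and the call was lost without C0301, without C0304 and with the stricter hashtag call (adjusted p = 0.098, 0.074 and 0.051). Il1b, an inflammatory cytokine, was at 179, 416 and 180 CPM against 88.7, 72.3 and 57.2 CPM, without overlap, and was not called (log2 fold change -1.78, edgeR adjusted p = 0.29).

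The 3 chains of C1q, the recognition part of the classical complement pathway made by macrophages, were dominated by C0303. C1qa was at 62.6, 59.4 and 556 CPM in C0301, C0302 and C0303 and at 44.4, 59.2 and 0 CPM in C0304, C0305 and C0306. The C0303 value rested on 77 UMIs from a gate of 36 cells with a median of 2889 UMIs. C1qb and C1qc reached 743 and 671 CPM in C0303, and each had 0 UMIs in C0306. None of the chains was called (edgeR adjusted p = 0.97), and without C0303 the log2 fold changes of C1qa and C1qc went from -2.51 and -2.45 to -0.81 and -0.20 and that of C1qb turned positive, at 0.67. Of 13 tested MHC class II genes 11 had positive values, with a median of 0.33, and none was called.

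In neutrophils 2 of 3539 genes were called (0.0565%), both lower in C0304-C0306. Ube2c, a ubiquitin-conjugating enzyme of mitosis, was at 281, 163 and 226 CPM in C0301-C0303 and at 28.4, 0 and 7.95 CPM in C0304-C0306 (log2 fold change -3.69, SE 0.45, edgeR adjusted p = 0.000622). Lrg1, a glycoprotein of neutrophil granules, was at 851, 745 and 986 CPM against 458, 366 and 477 CPM (log2 fold change -0.97, edgeR adjusted p = 0.047). The call of Lrg1 was lost with the stricter hashtag call (adjusted p = 0.25) and without C0301, C0302, C0303, C0305 or C0306 (0.19, 0.12, 0.30, 0.15 and 0.12), and that of Ube2c with the stricter hashtag call (0.25). Of 18 tested cell cycle genes 16 had negative values with a median of -0.97, and Ube2c alone was called. The neutrophils of C0304-C0306 numbered 44 to 61 and had medians of 1637 to 2031 UMIs, against 95 to 209 cells and 2272 to 2742 UMIs in C0301-C0303, and the part of depth in the result was not tested.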

How the data were processed

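Spleen cells were measured with the 10x Genomics 5′ v2 chemistry in 3 libraries, each with 6 TotalSeq-C hashtags. The deposited matrices hold UMI counts per gene and hashtag, produced by the authors in Cell Ranger 6.0.0, as the file header states, with mm10 as the build in the submitters' processing notes. Annotation and strand setting are not given in the sources used here. Counts were summed per hashtag over all cells and over gated cells, normalised by TMM, filtered by filterByExpr and tested with edgeR 4.0.16 (robust quasi-likelihood, R 4.3.3), with Benjamini-Hochberg adjustment over all genes tested at 0.05. A positive log2 fold change is higher in C0304-C0306. CPM are TMM-scaled.

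B, T, natural killer, plasma, erythroid, neutrophil and mononuclear phagocyte gates used UMIs of marker genes. Doublets were treated through the hashtag ratio only: 1441 of the kept barcodes (9.11%) had a second hashtag within 3 times the first, and 638 had a top hashtag under 20 UMIs. Shares were compared with exact permutation tests. Intervals and floors cover counting error only.

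Named genes were, for each comparison, up to 10 in each direction with the largest log2 fold change among called genes without overlap (filled to 5 by smallest p), immunoglobulin and T cell receptor segments left out, plus a list of genes and of gene sets. Other genes of the called set are given as examples chosen after their values were seen. The members and lists were chosen with earlier results of these data known. The edgeR test was run on counts simulated from its own fitted means and spread, with changes set in advance and populations drawn independently. Such counts cannot check dependence between hashtag populations or single outlying ones. Alternatives were DESeq2 1.42.0 (Wald test and size factors), no low-count filter, limits read as UMIs, a stricter hashtag call, each population left out, and for B cells a looser gate, a gate without other cells' markers and thinning to 1000 UMIs. Leaving out neutrophil and T cell gates was added after seeing the data. Positions come from GENCODE vM21 (GRCm38).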

Additional observations from a re-analysis of the deposited data

Results flagged for a closer look

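In a joint edgeR fit over the B cells of the 3 libraries, the difference between hashtag sets in the Ang II library was tested against the same difference in each other library. The sets of 3 were too small for a test of single outlying populations. Against the control library, the Ang II set difference minus the control set difference, on the log2 scale, was -1.09 for Gpr171, -0.61 for Stk17b, -1.22 for Nr4a1, -1.11 for Cebpb, -0.77 for Rasgef1b, -1.12 for Tgif1, -1.44 for Dusp5, 0.38 for Iglc2 and -0.70 for Dusp16. Against B6.SLE123 it was -0.95 for Gpr171, -1.07 for P2ry10 and -0.83 for Rasgef1b. The edgeR adjusted p of Gpr171 was 1.9e-05 against the control library and 0.00118 against B6.SLE123, and that of Dusp5 was 0.047 against the control library. The sets stand for other conditions in the other libraries. By label order they are male sham against female mice in the control library. In the B6.SLE123 library they are, by label order, untreated mice against mice given the same isolevuglandin scavenger. The part of library, genotype, sex and treatment in these differences was not tested.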

How the results depend on the processing

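The count of called genes depended on the processing. Over all cells it went from 51 to 395 with the DESeq2 Wald test, 244 without the low-count filter, 223 with limits read as UMIs and 28 with the stricter hashtag call, and ranged from 2 to 216 when 1 population was left out. In B cells it went from 68 to 176 without the filter, 38 without cells holding other cells' markers and 42 after thinning to 1000 UMIs, and ranged from 34 to 88 with 1 population left out. In mononuclear phagocytes, where 1 gene was called, it was 2 with the DESeq2 Wald test, 17 without the filter, 0 with limits read as UMIs (672 genes tested, 27 at an unadjusted p under 0.05), 0 with the stricter hashtag call (200 at an unadjusted p under 0.05), and 0 to 3 with 1 population left out. In neutrophils, where 2 were called, the corresponding counts were 4, 51, 7 and 1, and 1 to 178, the highest without C0304. The cause was not tested. Differences in shares kept their sign, apart from erythroid cells, whose difference of 0.0101 points was -0.0206 with the stricter hashtag call, -0.00595 without C0301 and -0.0134 to 0.0312 with 1 population left out. None of the named genes called in its comparison changed sign in any setting that tested it. Their sets did not overlap in the main setting, which made a change of sign unlikely in advance. A fold not called in either setting has no direction. In B cells 57 of 299 values of called named genes lost the call, and over all cells 81 of 229 did. Among B cell genes described above, Gpr171, Zfp36l2, Nr4a1 and Id3 kept the call in all 14 settings. Plk2 lost it in 5 of 13, Cplx2 in 5 of 12, and Dusp1 and Il4i1 in 4 of 14 each. No paired analysis was possible because the hashtag numbers do not tie a population of one set to one of the other. The phagocyte and neutrophil sums held 109489 to 1170612 UMIs and the B cell sums 4328566 to 7202532, and the part of depth in their counts was not tested.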
